A study of Mus musculus with 4 samples.

Results

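The TNF receptor-associated factors (TRAFs), the inhibitor of apoptosis proteins (IAPs), Cflar and Ripk1 were followed on 4 arrays of mouse primary chondrocytes: Traf1, Traf2, Traf3, Traf5, Traf6, Birc2, Birc3, Xiap, Cflar and Ripk1. They were taken as every probe whose accession is a RefSeq transcript of one of these genes, with no use of its signal. This gave 10 genes, read by 13 probes, of 37042 genes or unnamed transcripts on the array, and each of the 13 was called well above background by the scanner's software on every array.

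When TNF binds its receptor 1, Ripk1 and Traf2 gather at the receptor through the adaptor Tradd, and Traf2 brings in the IAPs Birc2 and Birc3, ubiquitin ligases that mark Ripk1. This complex switches on NF-κB, of which Rela is a subunit, and NF-κB is known to raise the transcription of several of the proteins that keep the cell alive, among them Traf1, Birc3 and Cflar. Without that supply Ripk1, Fadd and Casp8 can form a complex that starts apoptosis, which Cflar holds back. In cartilage, TNF is known as an inflammatory signal that reaches chondrocytes in joint disease.

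Primary chondrocytes came from C57BL/6J mice of 6 days of age, either Rela fl/fl, which served as the control, or Prrx1-Cre; Rela fl/fl littermates, named cKO in the labels. Both genotypes carried the floxed Rela allele, and Cre was driven by the Prrx1 promoter, which is active in undifferentiated limb mesenchyme. Cells of each genotype were kept for 3 days with 10 ng ml−1 TNF or without it. Each of the 4 combinations was hybridised to 1 array, so every value below has n = 1 and no replicate check. The number of mice or cultures behind an array is not given in the sources used here.

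The Rela probe gave signals of 28.4 (no TNF) and 34.9 (TNF) for Rela fl/fl cells, and of 34.0 and 40.2 for the arrays labelled cKO. A signal is the processed intensity over the 75th percentile of intensity on the same array (589 to 633 units). By PCR the authors report recombination of the floxed allele in chondrocytes of cKO mice, and by RT-PCR deletion of Rela in their tissues. On these arrays the Rela signal was not lower on those labelled cKO but higher. The log2 differences were 0.26 without and 0.21 with TNF, both past the limit of 2 technical SD given below. The files do not say whether this probe lies in the deleted part of the gene. If it lies outside, it checks nothing. The genotype is therefore given below as labelled, with control cells for Rela fl/fl and cKO-labelled for the other.

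Of the chondrocyte markers, 8 of 8 were well above background on all 4 arrays, with a summed signal of 1559 and 1492 in control cells without and with TNF and of 1268 and 1293 on cKO-labelled arrays. All 8 were lower on cKO-labelled arrays than on the control arrays at either treatment, 6 past the limit without TNF and 4 with it. The cartilage matrix gene Matn1 was furthest, at a log2 difference of -1.86 without and -1.19 with TNF. Col2a1 was nearest to no difference, at -0.03 and -0.005, within the limit. With TNF, 7 of the 8 were lower in control cells, 4 of them past the limit of 2 technical SD given below (Hapln1 by -0.43), and 2 were past it upwards on cKO-labelled arrays (Matn1 by 0.37). Of the markers of fibroblast-like cells 5 of 5 were well above background on all 4 arrays, with a summed signal of 808 and 831 in control cells and of 711 and 725 on cKO-labelled arrays, and Thy1 differed with TNF by -0.69 and 0.63. Of these 5, 3 were lower past the limit on the cKO-labelled array without TNF (Thy1 by -1.59, Dcn by -0.44 with a control spot in a bright patch, and Col3a1 by -0.20) and 4 with TNF. A bright patch is an area of an array where 3 or more neighbours of a spot exceeded their own values on each other array by 2-fold or more. Of the leukocyte markers 3 of the 4 measured were, and of the endothelial markers 2 of 3, while Ptprc, which defines leukocytes, and Cdh5, which defines endothelium, were not on any array. The summed leukocyte signal was 34.8 to 43.8 and the endothelial one 17.7 to 20.7 over the 4 arrays. Between the genotypes without TNF, 2 leukocyte markers were past the limit upwards (Adgre1 by 2.87, Itgam by 0.20), and both were past it downwards with TNF on cKO-labelled arrays (-3.48 and -0.35). The Adgre1 spot lay in a bright patch on the cKO-labelled array without TNF. Markers past the limit with TNF also included Col3a1 in control cells (0.28) and Dcn, the endothelial Kdr and the Y-linked Ddx3y on cKO-labelled arrays (0.35, 0.23 and 0.21). The Y-linked gene Eif2s3y was higher on cKO-labelled arrays by 1.81 without and 1.83 with TNF on the log2 scale, and Xist was not well above background there, so X- and Y-linked signal moved with the genotype.

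Differences are log2 differences between 2 arrays. The error given with a difference is its technical SD, from probes printed in 10 spots and of like brightness: 0.27 for signals under 0.25, 0.13 to 0.16 for signals from 0.25 to 1, and 0.08 to 0.09 for brighter probes. It measures the scatter of spots within an array and not the spread between cultures. The limits were a 2-fold difference and a difference of 2 technical SD, and "rose" and "fell" are written for differences past the latter. The brightness of a probe is its mean signal over the 4 arrays. Where several probes read a gene, the one with the highest mean signal stands for it in the counts and is called probe 1.

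With TNF, 3 of the 10 genes rose in control cells and the same 3 rose on cKO-labelled arrays: Traf1, Traf2 and Traf3. No gene of the 10 fell in either. With the error that the scanner's software gives for each spot in place of the technical SD, Traf2 did not pass in either genotype. The spots of Traf1 and Traf3 on the array of control cells with TNF lay in bright patches, described below, and with patches left out 1 of the 8 genes that remained rose in control cells. The limit was passed upwards by 11.2% of all genes in control cells and by 17.0% on cKO-labelled arrays, and downwards by 10.7% and 12.8%. At the 2-fold limit 1 of the 10 was past it in each genotype, Traf1, beside 6.66% of all genes in control cells and 5.03% on cKO-labelled arrays. With patches left out these shares were 1.29% and 2.19%, with 0 of 8 genes past 2-fold in control cells. The median difference of the 10 was 0.18 in control cells, where all genes had a median of 0.01, and 0.18 on cKO-labelled arrays, where they had 0.05. It was 0.19 and 0.076 without scaling, and 0.15 and 0.069 with the table of scaled values that the authors deposited. These are arrays of whole cultures, in which fewer cells of a type and less RNA per cell cannot be told apart. Markers of chondrocytes and of other cell types moved with TNF in the same arrays, as given above, and their part in these differences was not tested.

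**Figure D1:**
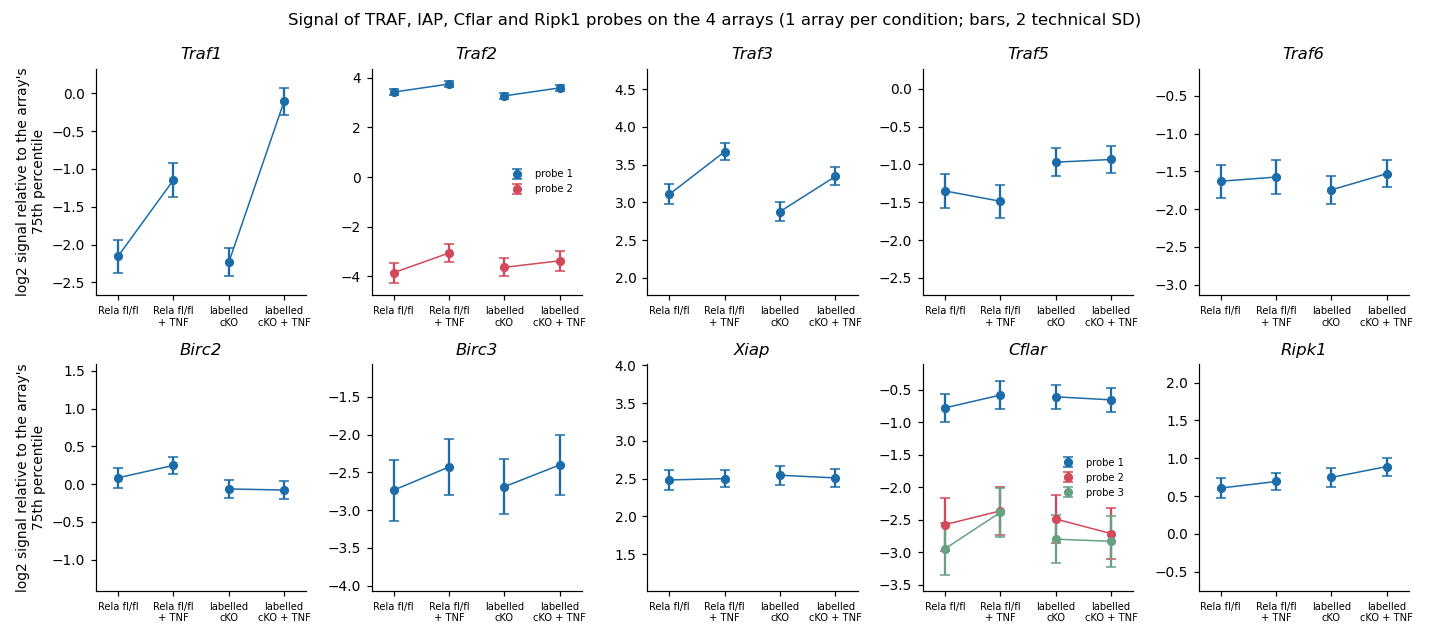
Signal of each probe of the 10 genes on the 4 arrays, as the log2 of the signal relative to the 75th percentile of its array; each panel has its own vertical axis, points are single arrays, bars are 2 technical SD, and lines join the arrays of 1 genotype. Traf1 spans the widest range, from a signal of 0.212 to 0.931, while the Xiap points lie within 5.59 to 5.84.

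Traf1, an adaptor that binds Traf2 and the IAPs and is itself a known NF-κB target, had a signal of 0.225 in control cells without TNF and of 0.452 with it. On the cKO-labelled arrays it had 0.212 without and 0.931 with TNF. In processed intensity these are 137, 278, 134 and 549 units. Both arrays without TNF were low and next to each other, the control array with TNF stood above them, and the cKO-labelled array with TNF was the highest of the 4. Traf1 rose with TNF by 1.01 ± 0.16 in control cells, a 2.01-fold difference, and by 2.13 ± 0.13 on cKO-labelled arrays, a 4.39-fold difference. Ordered by size, the latter was the 36th largest rise of 24902 genes tested, and the former the 555th of 23406.

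The difference between the genotypes in Traf1 was -0.08 ± 0.14 without TNF, within the technical limit, and 1.04 ± 0.14 with TNF. The mean Traf1 signal sets these errors, and with the 0.27 of signals under 0.25, as on both arrays without TNF, the first stays within the limit and the second past it. The TNF difference was larger on cKO-labelled arrays by 1.12 ± 0.20, past the technical limit over 4 arrays. Among all genes 11.6% passed that limit upwards and 8.73% downwards, and of the 10 genes Traf1 alone passed it, with none downwards. Under other settings Birc2 passed downwards without scaling (-0.29) and with the deposited table (-0.26), Cflar (-0.42) and Traf2 (-0.27) passed downwards with the mean over probes, and with patches left out, where Traf1 has no value, none passed. The Traf1 spot on the array of control cells with TNF lay in a bright patch. The 26 neighbouring spots that could be compared, as well above background on both arrays, had a median TNF difference of 0.08 in control cells. Between the genotypes with TNF the median of the comparable neighbours was -0.13. Dimmer neighbours are not in these medians. On the other 3 arrays the Traf1 spot lay in no patch. With a normexp background correction the rise was 0.68 in control cells and 1.67 on cKO-labelled arrays, and the genotype difference with TNF 0.86, so that the rise in control cells and the genotype difference were then under 2-fold. Without scaling the genotype difference with TNF was 0.98, and with the deposited table both were 0.98.

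The stretch of 250 bases before the transcript start is shown for Traf1, as the gene with the widest range, and below for Traf3 and Birc3, so that what lies before each start can be set beside its values. Sequences are from the RefSeq table of GRCm38.p6, 5′ to 3′ in the direction of the gene, and capitals mark a match to the NF-κB consensus or to a looser form of it (GGG and CC separated by any 5 bases), searched on both strands. The window of Traf1 is chr2:34961773-34962022 on the minus strand and holds neither form, which says only that these letters are not in this window.

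Traf1: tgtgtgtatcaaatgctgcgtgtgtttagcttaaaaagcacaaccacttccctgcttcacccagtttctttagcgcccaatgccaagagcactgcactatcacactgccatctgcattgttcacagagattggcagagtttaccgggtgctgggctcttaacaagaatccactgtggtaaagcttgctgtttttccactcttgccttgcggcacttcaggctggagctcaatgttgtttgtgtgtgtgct

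Traf2, the adaptor and ubiquitin ligase partner that recruits Birc2 and Birc3, was read by 2 probes. Probe 1 gave 10.7 and 13.4 in control cells without and with TNF and 9.63 and 12.0 on cKO-labelled arrays. The array with TNF was the higher one in both genotypes, and the rises of 0.33 ± 0.09 and 0.32 ± 0.09 differed by -0.004 ± 0.12. Probe 2 gave 0.0695 and 0.120 in control cells and 0.0806 and 0.0967 on cKO-labelled arrays. It rose by 0.79 ± 0.27 in control cells, while its difference of 0.26 ± 0.27 on cKO-labelled arrays was within the technical limit, as was the difference between the 2 of -0.53 ± 0.38. With the normexp background correction the rise of probe 2 in control cells was 0.20 and did not pass.

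Traf3, which holds the kinase Map3k14 at a low level in resting cells and so restrains the alternative NF-κB pathway, gave 8.62 without and 12.7 with TNF in control cells, and 7.35 without and 10.2 with TNF on cKO-labelled arrays. Both arrays with TNF lay above both arrays without it, and within each treatment the cKO-labelled array was the lower. Traf3 rose by 0.56 ± 0.09 and by 0.47 ± 0.09, and the 2 rises differed by -0.10 ± 0.12, within the technical limit. Its spot on the array of control cells with TNF also lay in a bright patch, whose comparable neighbours had a median TNF difference of 0.15.

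The window of Traf3 is chr12:111166120-111166369 on the plus strand. Its last 10 bases, which end at the base before the start, match the NF-κB consensus. Of the 14 windows listed for the 10 genes this was the one that held the consensus, which 3.90% of all 32851 promoter windows of the table hold. The looser form was in 7 of the 14 windows and in 45.8% of all windows, and every match to the consensus is also one to the looser form. A match describes letters, not a binding site.

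Traf3: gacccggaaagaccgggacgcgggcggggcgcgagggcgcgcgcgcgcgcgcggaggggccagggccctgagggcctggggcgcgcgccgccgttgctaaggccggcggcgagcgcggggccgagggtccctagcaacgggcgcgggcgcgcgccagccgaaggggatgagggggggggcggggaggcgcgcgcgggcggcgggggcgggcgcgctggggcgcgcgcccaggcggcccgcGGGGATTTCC

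Traf5 and Traf6 had no TNF difference past a limit, except that Traf6 reached 0.37 on cKO-labelled arrays, past its limit of 0.26, with quantile normalization. Traf5, a relative of Traf2 that also couples TNF family receptors to NF-κB, gave 0.392 and 0.357 in control cells without and with TNF and 0.511 and 0.523 on cKO-labelled arrays. Its arrays parted by genotype and not by treatment: both labelled cKO were above both of control cells, with TNF differences of -0.14 ± 0.16 and 0.04 ± 0.13. Traf6, which carries signals from interleukin-1 and Toll-like receptors, gave 0.323 and 0.336 in control cells and 0.298 and 0.346 on cKO-labelled arrays. All 4 Traf6 values lay close together, with TNF differences of 0.05 ± 0.16 and 0.21 ± 0.13.

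**Figure D2:**
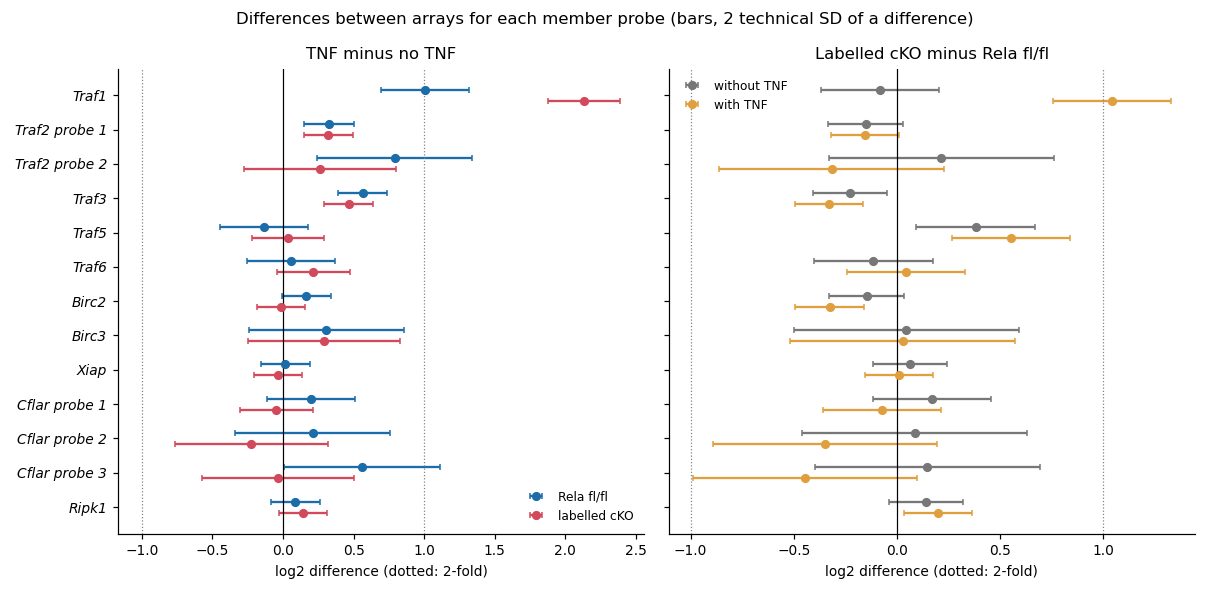
Log2 difference of each probe with TNF in the 2 genotypes (left) and between the genotypes without and with TNF (right); points are differences between 2 single arrays, bars are 2 technical SD, and dotted lines mark 2-fold. Traf1 is the probe beyond 2-fold, at 1.01 and 2.13 with TNF and at 1.04 between the genotypes with TNF, and Traf5 lies to the right of 0 in both genotype comparisons.

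With scaling, and with the technical SD from probes of like brightness, the 3 IAPs had no TNF difference past a limit in either genotype. Birc2, like Birc3 a ligase that Traf2 recruits, gave 1.06 and 1.19 in control cells without and with TNF and 0.957 and 0.947 on cKO-labelled arrays, where both arrays were below both control arrays. Its TNF differences were 0.16 ± 0.09, just inside the technical limit, and -0.01 ± 0.09. Without scaling the former was 0.17, at the limit, and counted as a rise. Birc3 gave 0.150 and 0.186 in control cells and 0.155 and 0.189 on cKO-labelled arrays. The array with TNF was the higher one in both genotypes, by 0.31 ± 0.27 and 0.29 ± 0.27, and at this low signal a difference had to reach 0.55 in control cells and 0.54 on cKO-labelled arrays to pass the technical limit. With 1 technical SD pooled over all brightness, whose limits were 0.28 in both, Birc3 passed in both genotypes. The genotypes differed in Birc3 by 0.05 ± 0.27 without and 0.03 ± 0.27 with TNF.

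Xiap, which inhibits caspases directly and is encoded on the X chromosome, gave 5.59 and 5.66 in control cells without and with TNF and 5.84 and 5.69 on cKO-labelled arrays. Its 5 differences lay between -0.05 and 0.06, each within a technical SD, on a bright probe where the limit was at its tightest. The genotype differences of 0.06 and 0.01 stand beside the shift in Xist and Y-linked signal given above, whose part in them was not tested.

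The window of Birc3 is chr9:7873171-7873420 on the minus strand. It holds a match to the looser form from 57 to 48 bases before the start and none to the consensus. Neither of the 2 windows of Birc2 held either form, and of the 3 windows of Xiap 1 held the looser form.

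Birc3: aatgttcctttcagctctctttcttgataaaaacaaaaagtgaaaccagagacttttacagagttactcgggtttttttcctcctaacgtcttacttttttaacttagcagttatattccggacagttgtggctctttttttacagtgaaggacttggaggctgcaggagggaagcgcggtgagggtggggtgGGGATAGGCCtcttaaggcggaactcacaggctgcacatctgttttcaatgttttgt

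**Figure D3:**
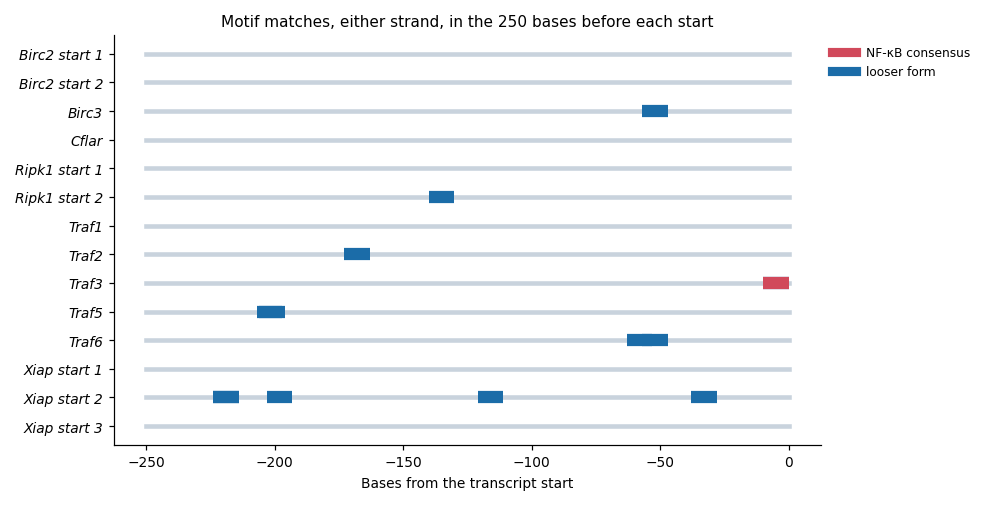
Matches to the NF-κB consensus (red) and to the looser form (blue) on either strand in the 250 bases before each of the 14 transcript starts listed for the 10 genes; the horizontal axis is the distance from the start in bases. The consensus is seen once, in the 10 bases before the Traf3 start, and Traf1, Cflar and both Birc2 windows have no match.

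Cflar, the brake on Casp8, was read by 3 probes. Probe 1 gave 0.583 and 0.668 in control cells without and with TNF and 0.656 and 0.635 on cKO-labelled arrays. Probe 2 gave 0.168 and 0.194 in control cells and 0.178 and 0.153 on cKO-labelled arrays. Probe 3 gave 0.130 and 0.191 in control cells and 0.144 and 0.140 on cKO-labelled arrays. On all 3 probes the highest of the 4 arrays was that of control cells with TNF. The TNF differences were 0.20 ± 0.16, 0.21 ± 0.27 and 0.56 ± 0.27 in control cells, of which the last passed the technical limit, and -0.05 ± 0.13, -0.22 ± 0.27 and -0.03 ± 0.27 on cKO-labelled arrays. Taken over the genotypes, the TNF difference was smaller on cKO-labelled arrays by 0.25, 0.44 and 0.59 on the log2 scale, each within its technical limit. Probe 3 in control cells stood at its limit of 0.55 and did not pass with the deposited table (0.53) or with normexp (0.30). The 3 probes read the same gene in the same 4 RNA samples and are not replicates.

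Ripk1, the kinase whose ubiquitin chains carry the survival signal, gave 1.52 and 1.62 in control cells without and with TNF and 1.68 and 1.85 on cKO-labelled arrays. The 4 values increased by small steps in that order, with TNF differences of 0.09 ± 0.09 and 0.14 ± 0.09, both within the technical limit. Birc3, Cflar, Traf6 and Xiap were the 4 genes of the 10 that passed no limit in any of the 4 comparisons by the probe that stands for the gene, apart from Birc3 with the pooled SD, Traf6 with quantile normalization and Cflar with the mean over its probes.

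Between the genotypes without TNF, 1 of the 10 genes was higher on the cKO-labelled array and 1 lower by more than 2 technical SD: Traf5 by 0.38 ± 0.14 and Traf3 by -0.23 ± 0.09. The limit was passed upwards by 14.5% and downwards by 13.1% of all genes. None of the 10 passed 2-fold, beside 7.67% of all genes, and the median of the 10 was -0.02 beside 0.00 for all genes. With the software's error neither gene passed, and Traf3 also did not without scaling (-0.18) or with the pooled SD.

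Between the genotypes with TNF, 3 of the 10 genes were higher on the cKO-labelled array and 2 lower: Traf1 by 1.04 ± 0.14, Traf5 by 0.55 ± 0.14 and Ripk1 by 0.20 ± 0.08 were higher, and Traf3 and Birc2 were lower, each by -0.33 ± 0.08. The limit was passed upwards by 17.4% and downwards by 11.8% of all genes, and 2-fold by 4.25%, with Traf1 the 1 gene of the 10. The median of the 10 was 0.02, and that of all genes 0.05. Traf3, Birc2 and Ripk1 did not pass with the software's error, and Ripk1 also did not with the pooled SD, without scaling (0.14), with quantile normalization (0.16) or with the deposited table (0.14). Traf2 was lower past its limit without scaling (-0.22), with quantile normalization (-0.23), with the deposited table (-0.22) and with the mean over probes (-0.24), the last of which also added Cflar (-0.29). The comparisons without and with TNF share no array, and Traf5 at 0.38 and 0.55 and Traf3 at -0.23 and -0.33 had the same sign in both. They are not replicates of the genotype. Both carry the same shift in X- and Y-linked signal, and whether their cultures came from the same mice is not given. With patches left out Traf1 and Traf3 have no genotype value with TNF, and the comparable neighbours of the Traf3 spot had a median of -0.15 in that comparison. This comparison shares an array with each of the TNF comparisons, so the Traf1 difference in it and the Traf1 rise on cKO-labelled arrays rest on the same array labelled cKO with TNF. The markers of chondrocytes and of fibroblast-like cells moved with the genotype in the same arrays, as given above, and their part in these differences was not tested. X- and Y-linked signal also moved with the genotype at either treatment, so genotype and the sex of the cells cannot be told apart in these differences.

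**Figure D4:**
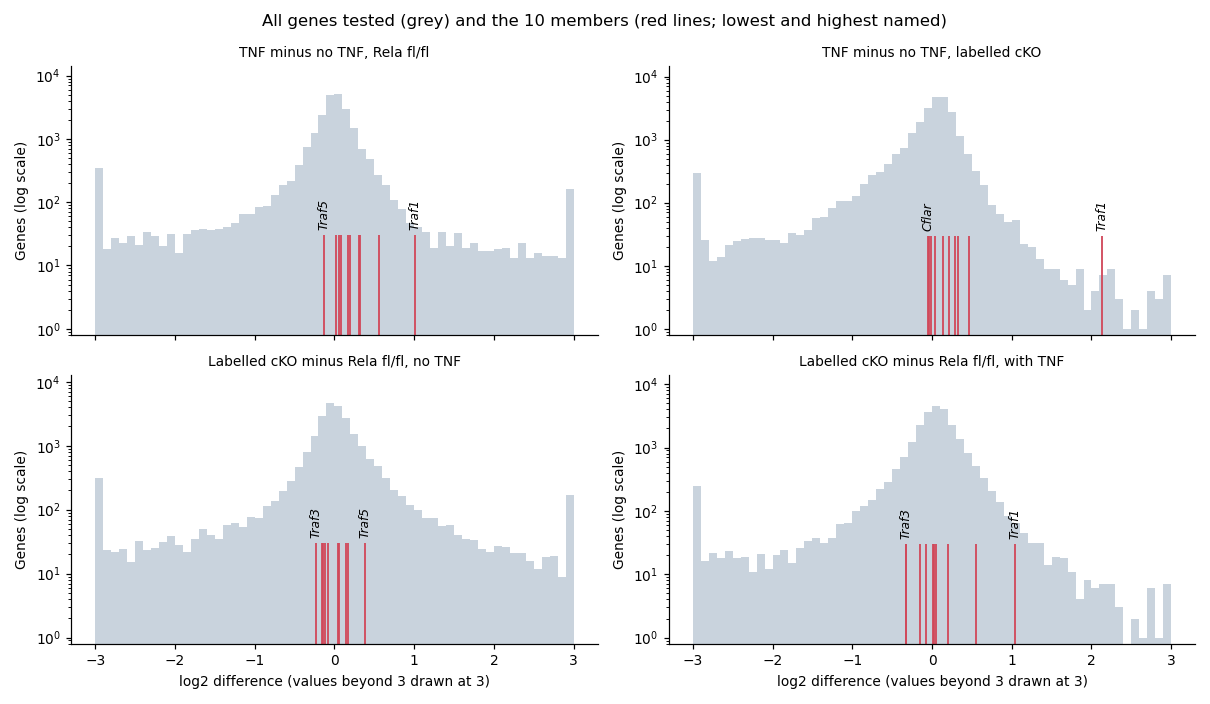
Distribution of the log2 difference over all genes tested (grey, number of genes on a log axis, values beyond 3 drawn at 3) in the 4 comparisons, with the 10 genes as red lines and the lowest and highest of them named. Traf1 is the highest of the 10 in 3 of the 4 comparisons, and the others lie between -0.33 and 0.56 in all 4.

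From a list of 50 other genes of TNF receptor signalling and of the TRAF and IAP families, 48 could be compared, 47 of them well above background on all 4 arrays. With TNF, 11 of the 48 rose and none fell in control cells, and 15 rose and 2 fell on cKO-labelled arrays, beside 11.2% and 17.0% of all genes upwards and 10.7% and 12.8% downwards. The list's median was 0.05 and 0.10, where all genes had 0.01 and 0.05. The list's counts past the technical limit were not repeated under other settings. Without scaling the median TNF difference of all genes on cKO-labelled arrays was -0.05, so rises close to the limit there depend on the scaling. Between the genotypes, 5 were higher and 2 lower without TNF, and 11 higher and 7 lower with TNF, on cKO-labelled arrays, beside 14.5% and 13.1% of all genes without and 17.4% and 11.8% with TNF.

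Tnfaip3, a ubiquitin-editing enzyme that ends TNF signalling and a known NF-κB target, passed 2-fold. It gave 0.254 and 0.874 in control cells without and with TNF and 0.241 and 0.343 on cKO-labelled arrays, with no spot in a patch. The array of control cells with TNF stood well above the other 3. Tnfaip3 rose by 1.78 in control cells and by 0.51 on cKO-labelled arrays, a difference of -1.27 between them, where that of Traf1 was 1.12. Both thus had nearly equal signals in the genotypes without TNF, and with TNF they parted in opposite directions.

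Otud7b, a deubiquitinase that acts on Traf3, was the other gene of the list past 2-fold. It gave 0.249 and 0.258 in control cells without and with TNF and 0.280 and 0.620 on cKO-labelled arrays. The array labelled cKO with TNF was the high one, with a rise of 1.15 there against 0.05 in control cells. Its spot lay in a bright patch on both cKO-labelled arrays, so it drops out with patches left out, and with normexp its rise on cKO-labelled arrays was 0.69 and its genotype difference with TNF 0.89, both under 2-fold.

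Of the core of the receptor complex, the receptor Tnfrsf1a, read in 10 spots of which up to 2 lay in a patch on an array, rose by 0.22 in control cells and by 0.24 on cKO-labelled arrays. The adaptor Tradd differed by 0.09 in control cells, within the limit, and rose by 0.19 on cKO-labelled arrays. Leaving out the scaling lowered TNF differences on cKO-labelled arrays, that of Traf1 from 2.13 to 2.03. The rises of Tnfrsf1a and Tradd there exceeded their limit of 0.17 by less than this shift. Fadd, the adaptor of the death-inducing complex, differed by -0.02 in control cells and rose by 0.34 on cKO-labelled arrays, with its spot on the control array without TNF in a bright patch. Casp8, the caspase it recruits, differed by 0.13 and 0.02 with TNF, both within the limit.

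Map3k14, the kinase that Traf2, Traf3 and the IAPs keep low, was singled out after its values were seen. It gave 1.22 and 1.68 in control cells without and with TNF and 1.66 and 2.36 on cKO-labelled arrays. It rose with TNF by 0.46 and 0.51 and was higher on cKO-labelled arrays by 0.45 without and 0.49 with TNF, so its values followed both the treatment and the genotype.

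**Figure D5:**
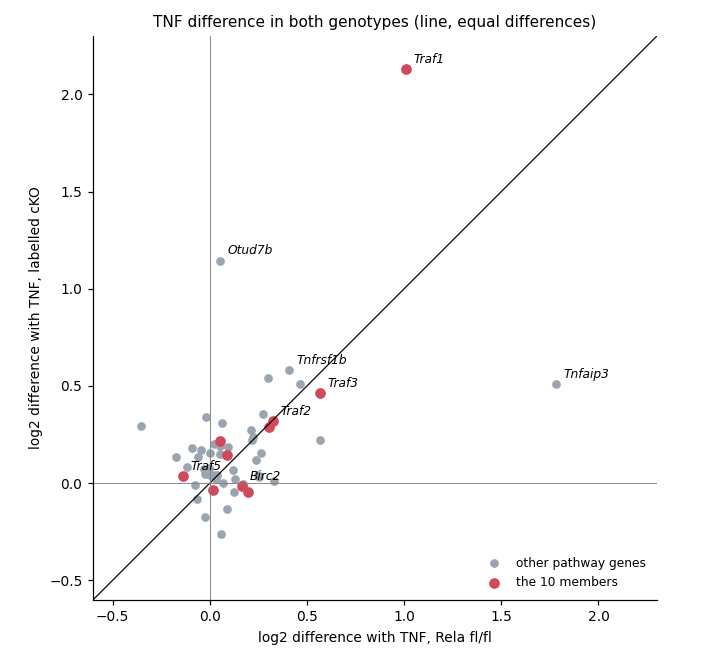
Log2 difference with TNF on cKO-labelled arrays (vertical axis) against that in control cells (horizontal axis) for the 10 genes (red) and the other pathway genes well above background on all 4 arrays (grey), 1 array per condition; the line marks equal differences. Traf1 lies above the line at 1.01 and 2.13, Tnfaip3 below it at 1.78 and 0.51, and Traf2 and Traf3 near it.

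The genes whose pattern over the 4 arrays was nearest to that of Traf1 were found among the 14917 genes that no array had near background or in a bright patch, by the distance between log2 signals centred on each gene's mean. With 4 arrays this is a description of 4 points. The nearest were Errfi1, a feedback inhibitor of the EGF receptor, at a distance of 0.47, Nipal1 at 0.60, the transcript NR_002860 at 0.68, Il1rl1, the receptor of interleukin-33, at 0.69, and the transcript AK019465 at 0.70. Errfi1 gave 9.94 and 16.1 in control cells without and with TNF and 9.64 and 28.3 on cKO-labelled arrays, a TNF difference of 0.70 in the former and 1.55 in the latter. Il1rl1 gave 4.56 and 15.1 in control cells and 3.73 and 20.5 on cKO-labelled arrays, a TNF difference of 1.72 and 2.46. In each of these 5, as in Traf1, the cKO-labelled array with TNF was the highest of the 4. The 5 were chosen by nearness to the Traf1 pattern on these same arrays, so this follows largely from the choice. That pattern includes the Traf1 value of control cells with TNF, whose spot lay in a bright patch.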

How the data were processed

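For 4 Cy3 arrays the authors deposited spot intensity (SurePrint G3 Mouse, 1 colour), as Agilent Feature Extraction 10.10.1.1 writes it with background and trends removed, and a table of the same intensity times 1 factor per array (1.77 to 1.83), whose basis is not given in the sources used here. Here log2 intensity was lowered by the 75th percentile of each array's transcript spots (59305). Outlier spots were dropped and spots of a probe averaged. Dim signals were set to the lowest signal that was well above background (0.0297 to 0.0527). Symbols came from RefSeq by accession, matching 20435 of 20809 NM accessions. Patches were sought within 5 rows and 2 columns of a spot. The technical SD rests on 18 to 146 probes per brightness class, and both these classes and the patch rule were set with the data in view. With n = 1 per condition no p-value was computed. The number of arrays limits the precision. The text names all members, Rela, listed pathway genes past 2-fold or of the receptor core, the 5 genes nearest to Traf1 and, outside this rule, Map3k14. The members, lists and limits were chosen with earlier results of these data known. The counting at the 2-fold limit was tested on simulated data, with differences beyond that limit and a single spread for all brightness. Neither the technical limit nor bright patches were part of that test. Alternatives covered scaling (none, quantile, the deposited table), normexp (offset 50, on the median intensity, as the mean was not in the files), dim signals, patches, outliers, probe summary, limit and spread. Python 3.11.15, numpy 2.4.6, pandas 2.3.3, R 4.3.3 and limma 3.58.1 were used.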

Additional observations from a re-analysis of the deposited data

Results flagged for a closer look

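Some probes had TNF differences of opposite sign in the 2 genotypes, or genotype differences of opposite sign without and with TNF. With 1 array per condition the difference between the differences was not tested, and both choices of contrast give it the same value. The TNF difference on cKO-labelled arrays minus that in control cells was -0.18 for Birc2 (0.16 in control cells and -0.01 on cKO-labelled arrays), 0.17 for Traf5 (-0.14 and 0.04) and -0.053 for Xiap (0.02 and -0.04). For Cflar it was -0.25 for probe 1, -0.44 for probe 2 and -0.59 for probe 3, and on these 3 probes the genotype difference changed sign as well, from 0.17, 0.09 and 0.15 without TNF to -0.07, -0.35 and -0.45 with it. The genotype difference changed sign with TNF by 1.12 for Traf1 (from -0.08 to 1.04), by -0.53 for Traf2 probe 2 (from 0.21 to -0.32) and by 0.16 for Traf6 (from -0.11 to 0.04). Of these, the value of Traf1 was past 2 technical SD over 4 arrays and the others were within, but Birc2 passed without scaling (-0.29) and with the deposited table (-0.26), Cflar and Traf2 passed with the mean over probes (-0.42 and -0.27), and with patches left out Traf1 has no value. Several of the sign changes were absent under other settings. With quantile normalization the TNF difference on cKO-labelled arrays was 0.025, 0.0099 and 0.21 for Cflar probes 1 to 3 and 0.004 for Birc2. That of Traf5 there was -0.067 without scaling and -0.074 with the deposited table. That of Xiap in control cells was -0.024 with quantile normalization and -0.015 with the deposited table. The genotype difference of Traf6 with TNF was -0.017 without scaling, -0.014 with the deposited table and -0.018 with normexp.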

How the results depend on the processing

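Over the alternatives the median of the 10 genes lay between 0.069 and 0.18 with TNF on cKO-labelled arrays, between 0.14 and 0.24 in control cells (0.13 over the 8 genes left without patches), between -0.073 and 0.038 and between -0.044 and 0.052 between the genotypes without and with TNF, and between -0.12 and 0.040 for the difference of the TNF differences, so the last 3 changed sign with the setting. Of 449 values of single probes under the alternatives, 431 moved by less than a technical SD, 18 moved by more, and 0 of those past the technical limit changed sign. The 431 include values that could not move, those with dim signals not raised, outlier spots kept or patches left out. The member probes had 0 outlier spots and were well above background on all 4 arrays. No scaling, quantile normalization, the deposited table and normexp could move a value, with 65 values each. The Traf1 rise on cKO-labelled arrays lay between 1.67 and 2.23. With normexp the number of genes past 2-fold fell from 1 to 0 with TNF in control cells and between the genotypes with TNF. It also fell to 0 in both with the deposited table (Traf1 at 0.98 in each), and between the genotypes with TNF without scaling (0.98). Leaving out patches removed the control value with TNF of Traf1 and Traf3, so that 0 were past 2-fold in those comparisons, 1 rose with TNF in control cells, 1 was lower between the genotypes with TNF, and 0 had a larger TNF difference on cKO-labelled arrays. It lowered the share of all genes past 2-fold to 1.29% and 2.19% with TNF in control cells and on cKO-labelled arrays, and to 2.15% and 2.04% between the genotypes without and with TNF. Without scaling, 2 were higher and 0 lower between the genotypes without TNF, and 1 had a smaller TNF difference on cKO-labelled arrays, as with the deposited table (1), Birc2 in both. Without scaling Birc2 also joined the rises in control cells and Ripk1 the higher genes without TNF, in place of Traf3 lost among the lower. Without scaling, with quantile normalization and with the deposited table Ripk1 left the higher genes with TNF and Traf2 joined the lower, and quantile normalization added Traf6 to the rises on cKO-labelled arrays. With the mean over probes, 4 were lower between the genotypes with TNF and 2 had a smaller TNF difference on cKO-labelled arrays, Cflar and Traf2 added in both, and Cflar rose in control cells. With the software's error, 0 were higher and 0 lower without TNF and 0 lower with TNF, Ripk1 was lost among the higher with TNF, and Traf2 among the rises in both genotypes (2 left in each). With 1 technical spread pooled over all brightness, chosen after seeing the data, 0 were lower without TNF, Birc3 joined the rises in both genotypes (4 in each) and Ripk1 was lost with TNF. The 1.5-fold limit left the number of genes past the limit as it was. The cause was not tested where the construction of the alternative does not show it. Signals close to background, as for Birc3, Traf2 probe 2 and Cflar probes 2 and 3, limit what could be seen. No paired analysis was possible because each condition has a single array and no test was run.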
